A study of Rattus norvegicus with 6 samples.

Results

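The genes described here are interferon-responsive genes of rat liver, a list of 38 genes that cells switch on when interferon binds its receptors. A member was represented by the array probes whose accession matched its RefSeq symbol, and, where several probes matched, by the probe with the highest mean log2 signal over all arrays. Of the 38 members, 34 had a named probe, among 15284 genes with a named probe in all, and 33 of those 34 were tested, among 11093 genes tested. Rigi, Samhd1, Xaf1 and Herc6 had no named probe, so their levels are not analysed here.

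Liver total RNA of 6 male Sprague-Dawley rats, purchased at 5 weeks of age, was measured with one Cy3-labelled Agilent array per animal. The vehicle group held 3 rats. The other 3 rats received 1000 mg/kg/day of tert-butyl alcohol (tBA), a small tertiary alcohol with solvent and fuel uses. The sample labels name purified water as the vehicle and the treatment protocol names corn oil; the series text gives 28 days of dosing and the protocol gives 9 weeks. Sprague-Dawley rats are outbred, so animals of one group differ genetically. In whole liver RNA, fewer cells of a type and less RNA per cell cannot be told apart.

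Interferons are secreted signals of infection and tissue damage. Type I interferons act through receptor kinases on a complex that includes STAT2 and IRF9 and binds a promoter sequence called the interferon-stimulated response element (ISRE), whereas interferon gamma acts on a gamma-activated site (GAS). The induced genes encode sensors of viral RNA, enzymes and GTPases that block viral growth, the ubiquitin-like modifier ISG15 and the peptide loading machinery of MHC class I. In liver, hepatocytes as well as Kupffer cells, the resident macrophages, express many of them without infection.

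The share of probes well above background ran from 61.5% to 66.9% over the arrays, without saturated spots. The 10 hepatocyte markers examined, such as albumin, were well above background on all 6 arrays. All vehicle arrays and tBA replicate 1 lay on slide 1; tBA replicates 2 and 3 lay on slide 2, scanned on another day. Levels below are log2 processed signals minus the array's 75th percentile, and differences are tBA minus vehicle on the same scale.

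RefSeq promoter windows of the GRCr8 rat assembly, from 250 bases before to 50 bases after the gene's start, were found for 30 members. Samhd1, Xaf1 and Herc6, which had no named probe, were among these 30. The core of the ISRE was searched as GAAA, NN, GAAA and on the other strand TTTC, NN, TTTC, where N is any base, and that of the GAS as TTC, NNN, GAA, which reads the same on both strands. At least 1 ISRE core was present in 18 of the 30 members, 60.0%, against 4.12% of 27457 genes with a window of that length. A GAS core was present in 9 of the 30, 30.0%, against 9.39%. Both were present in 5 members, and the letters of the 2 motifs overlapped in 1, Bst2. These matches describe letters in a window and not binding.

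Windows around the ISRE core nearest the start are printed for 8 members that differed in how they behaved across the arrays, 5′ to 3′ on the gene's strand, with the core in capitals. Irf7 (chr1:205800068-205800107, minus strand), Ifit3 (chr1:241527267-241527306, plus), Parp14 (chr11:78408043-78408082, plus), Gbp2 (chr2:234005681-234005720, plus) and Tap1 (chr20:4668640-4668679, minus) were lowest on tBA replicate 2. Oas1a (chr12:41330416-41330455, plus), Oas1b (chr12:41395881-41395920, minus) and Ifi44 (chr2:243303842-243303881, minus) were not.
Irf7: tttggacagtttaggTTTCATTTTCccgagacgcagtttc
Ifit3: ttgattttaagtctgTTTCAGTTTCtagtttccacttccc
Parp14: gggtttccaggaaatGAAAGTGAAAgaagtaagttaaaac
Gbp2: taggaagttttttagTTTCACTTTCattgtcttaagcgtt
Tap1: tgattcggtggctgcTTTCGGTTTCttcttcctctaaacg
Oas1a: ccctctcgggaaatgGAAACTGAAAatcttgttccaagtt
Oas1b: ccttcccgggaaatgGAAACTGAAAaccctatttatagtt
Ifi44: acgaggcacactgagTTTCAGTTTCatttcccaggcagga

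The core began 35 bases upstream of the start in Oas1a, 53 in Oas1b, 44 in Ifit3, 69 in Irf7 and 121 in Tap1. In 6 members the window held more than 1 core, among them Oas1a, Oas1b and Bst2, where 2 cores overlapped. The tested members with an ISRE core comprised 13 with a lower and 4 with a higher tBA mean, and those with a window but without it 7 and 3.

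**Figure D1:**
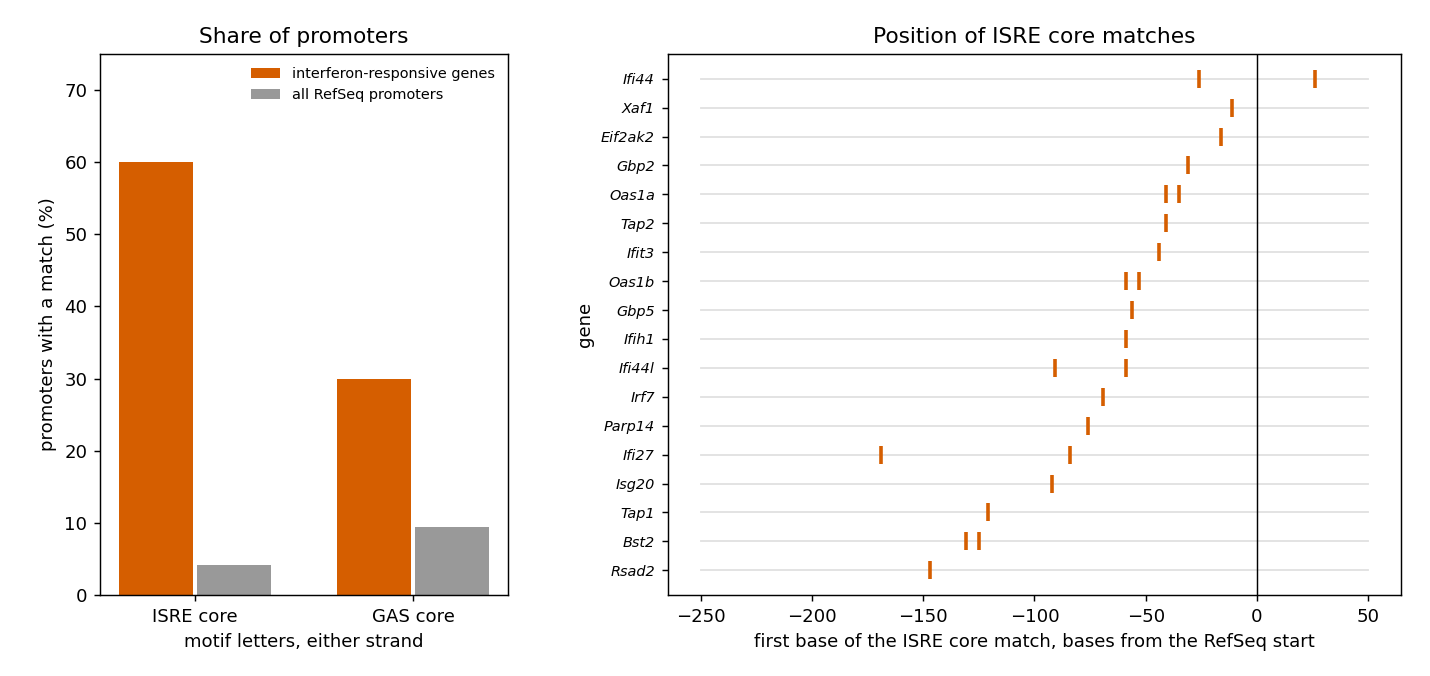
Left, percent of promoters with the ISRE core or the GAS core on either strand, for the 30 interferon-responsive genes with a window and for all RefSeq promoters of that length. Right, position of each ISRE core in bases from the RefSeq start (vertical line at 0) in the 18 members that hold one; all but 1 of the cores lie upstream of the start.

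No interferon-responsive gene passed the test between tBA and vehicle. None of the 33 tested members passed an adjusted p of 0.05 (limma with Benjamini-Hochberg adjustment over all 37647 probes tested), where 0.0451% of all genes tested did; the smallest adjusted p of a member was 0.275, for Trim25. At an unadjusted p under 0.05 there were 4 members, which is 12.1% of the 33 against 15.1% of all genes. Of these, 2 were higher with tBA, Trim25 and Ifi44, where 7.59% of all genes were, and 2 were lower, Ifih1 and Tap1, where 7.46% of all genes were. The tBA and vehicle values did not overlap in 3 members, 9.09%, against 24.2% of all genes. Trim25 was higher, against 12.8% of all genes, and Mx2 and Gbp2 were lower, against 11.4%. With 3 arrays against 3 the exact permutation test of a single gene cannot go below p = 0.1.

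The tBA mean was lower in 24 members and higher in 9, and the median difference was -0.20, against 0.0024 over all genes. This median rested on tBA replicate 2, without which it was -0.015, with 17 members lower and 16 higher. Without tBA replicate 1 it was -0.38, with 25 lower and 8 higher, and 0 members passed, the smallest adjusted p being 0.139 for Parp14. With slide as a fixed block, where only tBA replicate 1 is compared with vehicle, it turned to 0.25, with 22 members higher and 11 lower. Single differences ran from -0.60 to 0.52, and the 95% interval of 20 members lay within a 2-fold change either way. For the other 13, among them Isg15, Usp18 and Irf7, a 2-fold change was not excluded by the interval.

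**Figure D2:**
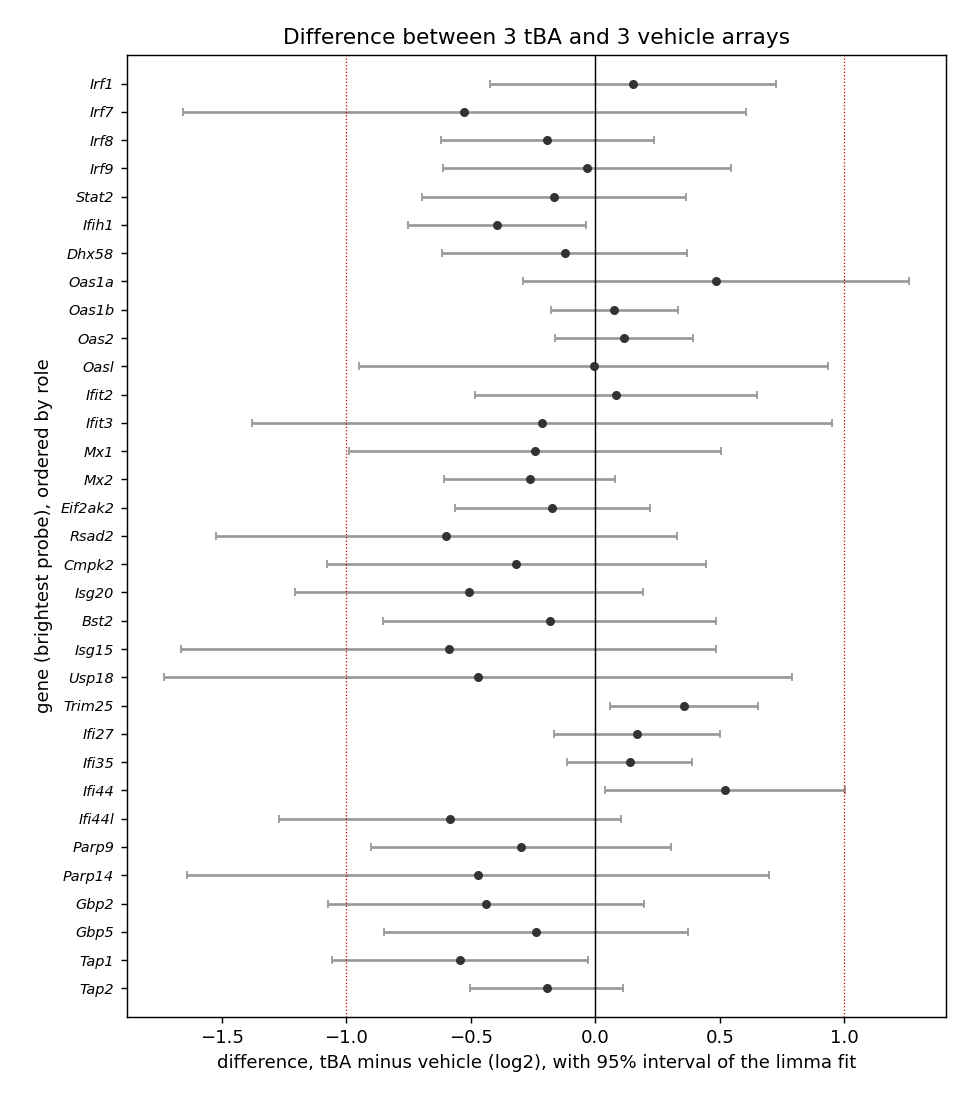
Difference of tBA minus vehicle (log2) for the 33 tested members, with the 95% interval of the limma fit; red dotted lines mark a 2-fold change. Intervals of 4 members, Trim25, Ifi44, Ifih1 and Tap1, do not cross 0, and none of the 33 passed after adjustment.

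The members varied more among animals of one group than most genes did. Their median within-group SD was 0.35, against 0.16 over all genes, and their median range was 0.51 over the vehicle arrays and 0.76 over the tBA arrays, against 0.26 and 0.29. tBA replicate 1 lay above both other tBA arrays in 26 of 33 members, 78.8%, where 37.3% of all genes did so. tBA replicate 2 was the lowest of the 6 arrays in 23 members, 69.7%, against 20.3% of all genes, and tBA replicate 1 was the highest in 13, 39.4%, against 17.1%. The gap between tBA replicates 1 and 2 was wider than the difference between the group means in 29 of the 33, against 53.6% of all genes.

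Relative to the vehicle mean, the median member stood at 0.25 on tBA replicate 1, -0.50 on tBA replicate 2 and -0.18 on tBA replicate 3. The vehicle arrays were at 0.024, 0.076 and -0.16 in replicate order. Over all genes the 6 medians lay between -0.0065 and 0.0189. Vehicle replicate 3 was the lowest vehicle array in 21 of the 33 members, 63.6%, against 35.3% of all genes. tBA replicates 2 and 3 were the only arrays of slide 2, so slide and animal cannot be told apart for them.

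**Figure D3:**
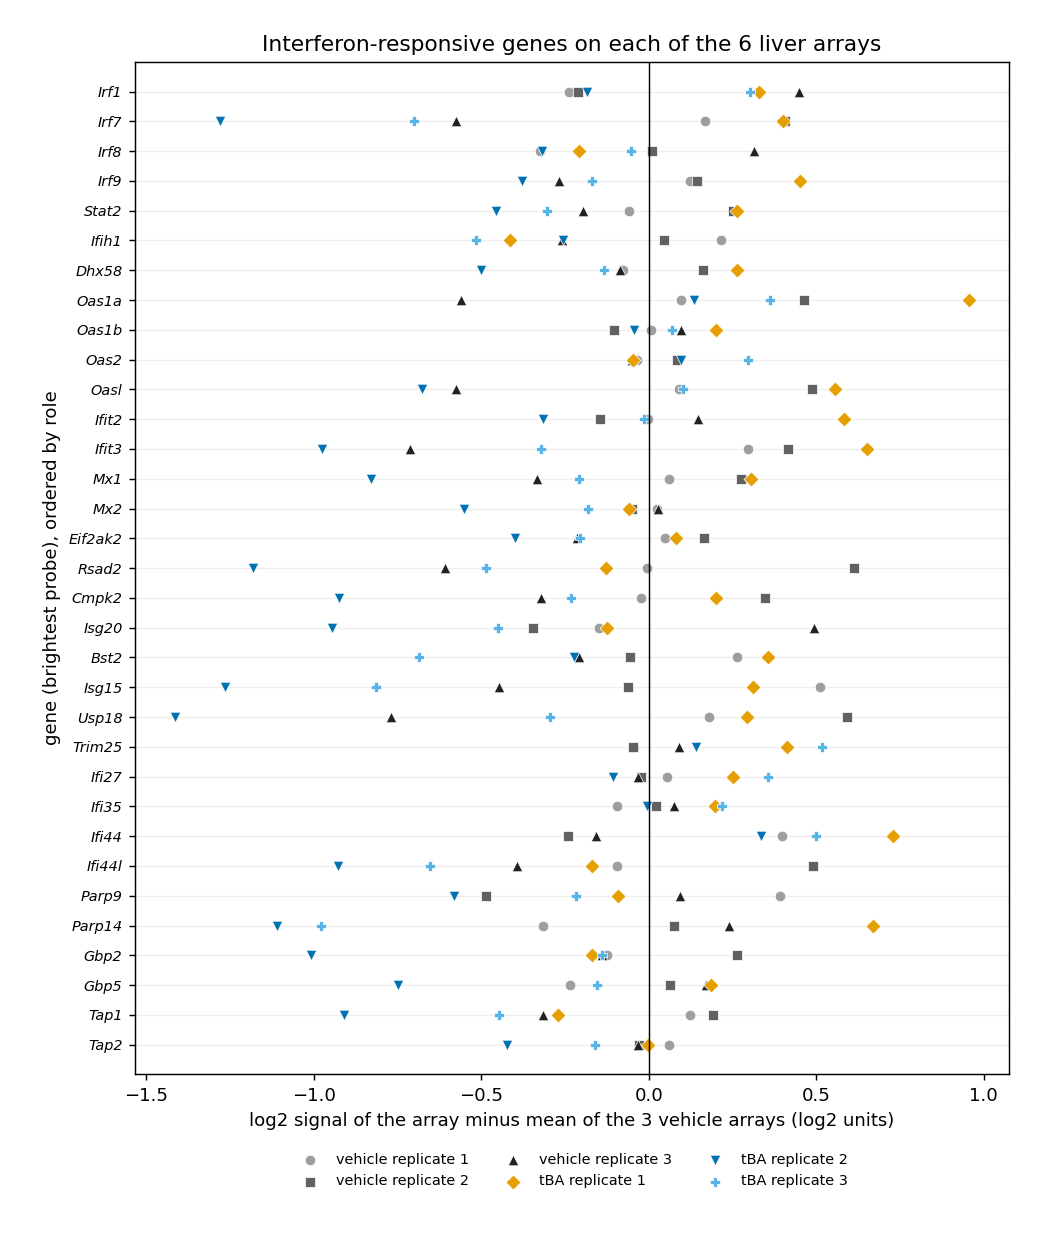
Level of the 33 tested members on each array relative to the mean of the 3 vehicle arrays (log2 units), genes ordered by role; each symbol is 1 array. The symbols of tBA replicate 2 lie at the left end in 23 rows and those of tBA replicate 1 at the right end in 13.

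Among the transcription factors, Irf7 and the partners Stat2 and Irf9 were lowest on tBA replicate 2, and Irf1 and Irf8 on vehicle replicate 1. Irf7, which amplifies the type I response, was at 2.75, 2.99 and 2.00 on the vehicle arrays and at 2.98, 1.30 and 1.88 on the tBA arrays, each in replicate order. tBA replicate 1 therefore sat with the 2 highest vehicle animals and tBA replicates 2 and 3 below all of them, at a difference of -0.53 (SE 0.47, adjusted p = 0.592). Stat2 was at 4.30, 4.61 and 4.16 in vehicle and at 4.62, 3.90 and 4.05 with tBA, with tBA replicates 2 and 3 again the lowest 2. Irf9 was at 0.19, 0.21 and -0.20 in vehicle and at 0.51, -0.31 and -0.11 with tBA. Its group means differed by -0.03 (SE 0.24). Irf1, a factor induced by interferon gamma, ran from 2.89 to 3.57 in vehicle and from 2.94 to 3.46 with tBA, with vehicle replicate 3 the highest. Irf8, a factor of myeloid cells, differed by -0.19 (SE 0.18).

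The sensors of viral RNA had lower tBA means, and neither passed. Ifih1, which encodes the double-stranded RNA sensor MDA5, was at -0.86, -1.03 and -1.34 on the vehicle arrays and at -1.49, -1.33 and -1.59 on the tBA arrays. Here tBA replicate 1 was low with the others and only tBA replicate 2 and vehicle replicate 3 overlapped, and the difference was -0.39 (SE 0.15, adjusted p = 0.292). Dhx58, a regulator of these sensors, ran from -0.83 to -0.58 in vehicle and from -1.25 to -0.48 with tBA (difference -0.12, SE 0.20). Its other 2 probes were also lower, at -0.25 and -0.60. The groups were separate on the latter, its dimmest probe (SE 0.17, adjusted p = 0.234 in limma).

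Genes of the oligoadenylate synthetase family, whose active enzymes switch on the RNA-degrading RNase L, did not share one order of arrays. Of the 4 only Oasl was lowest on tBA replicate 2. Oas1a was at 3.06, 3.43 and 2.41 in vehicle and at 3.92, 3.10 and 3.33 with tBA. The groups overlapped, vehicle replicate 3 was the lowest array, and the difference was 0.48 (SE 0.32, adjusted p = 0.476). Oas1b differed by 0.08 (SE 0.11) and Oas2 by 0.12 (SE 0.11). Oas1a and Oas1b are related copies, so their probes may share signal. Oasl, whose level ran from -4.27 to -3.21 in vehicle and from -4.37 to -3.14 with tBA, differed by -0.01 (SE 0.39) and its next lowest array was vehicle replicate 3.

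IFIT proteins bind foreign RNA and stop its translation. Ifit1 was well above background on 2 vehicle arrays, at -3.33 and -4.45 on replicates 1 and 2, and on 1 tBA array, replicate 1, at -3.25. It was not well above background on vehicle replicate 3 or on tBA replicates 2 and 3, and was therefore not tested. Ifit3 was at -1.15, -1.03 and -2.16 in vehicle and at -0.79, -2.42 and -1.77 with tBA, a difference of -0.22 (SE 0.48). The low arrays of Ifit3 were the 3 on which Ifit1 was not well above background. Ifit2 ran from -0.56 to -0.27 in vehicle and from -0.73 to 0.16 with tBA, with tBA replicate 1 the highest array.

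The Mx proteins are dynamin-like GTPases that trap viral particles. Mx1 was at 2.21, 2.42 and 1.81 in vehicle and at 2.45, 1.32 and 1.94 with tBA, a difference of -0.24 (SE 0.31). Its dimmer probe had the other sign, at 0.12. Mx2 was at 6.75, 6.67 and 6.75 in vehicle and at 6.67, 6.17 and 6.54 with tBA. Its groups did not overlap, but tBA replicate 1 lay just below the lowest vehicle value, and the difference was -0.26 (SE 0.14, adjusted p = 0.400).

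Rsad2, which encodes viperin, an enzyme that makes a chain-terminating nucleotide, was at 0.60, 1.21 and -0.01 in vehicle and at 0.47, -0.58 and 0.12 with tBA, the lowest difference of the list at -0.60 (SE 0.38, adjusted p = 0.465). Cmpk2, a nucleotide kinase encoded beside it on chromosome 6 on the other strand, was at -0.18, 0.19 and -0.48 in vehicle and at 0.04, -1.08 and -0.39 with tBA. Both genes were highest on vehicle replicate 2 and lowest on tBA replicate 2. The RNA exonuclease gene Isg20 was at 0.82, 0.63 and 1.47 in vehicle and at 0.85, 0.03 and 0.52 with tBA (difference -0.51, SE 0.29), and here vehicle replicate 3 was the highest array. Bst2, which encodes the virus-tethering protein tetherin, was at 5.43, 5.11 and 4.96 in vehicle and at 5.52, 4.94 and 4.48 with tBA. Unlike most members it was lowest on tBA replicate 3. Eif2ak2, the double-stranded RNA-dependent kinase PKR, ran from 0.21 to 0.58 in vehicle and from 0.02 to 0.50 with tBA.

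Isg15 and its protease showed wide spreads within both groups. Isg15, the ubiquitin-like modifier, was at 2.85, 2.28 and 1.89 on the vehicle arrays and at 2.65, 1.08 and 1.53 on the tBA arrays. tBA replicates 2 and 3 lay below every vehicle value and tBA replicate 1 above 2 of the 3, and the difference of -0.59 (SE 0.44, adjusted p = 0.527) was smaller than the tBA range of 1.58. Usp18, which removes ISG15 and dampens the type I receptor, was at 1.18, 1.59 and 0.23 in vehicle and at 1.29, -0.41 and 0.71 with tBA. Its range was 1.36 over vehicle and 1.71 over tBA, and its difference was -0.47 (SE 0.52). Trim25, a ubiquitin ligase that activates the sensor RIG-I, was the exception: it was at 3.71, 3.70 and 3.84 in vehicle and at 4.16, 3.89 and 4.26 with tBA. Trim25 was the only member whose brightest probe had all 3 tBA arrays above all vehicle arrays, against 12.8% of all genes. Its difference was 0.36 (SE 0.12, adjusted p = 0.275 in limma).

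**Figure D4:**
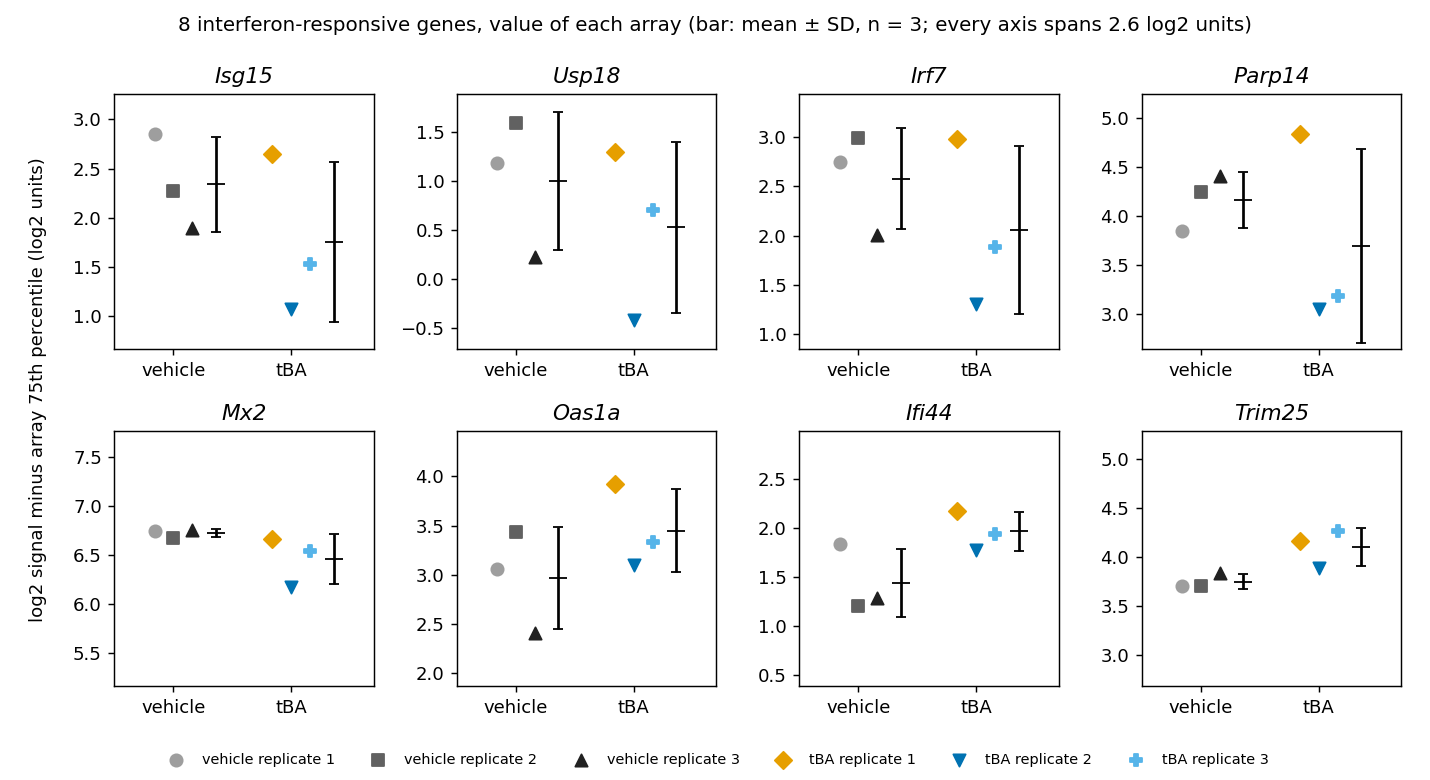
Level of 8 members on each array (log2 signal minus the array's 75th percentile), vehicle left and tBA right, with the mean and SD of each group (n = 3) beside the points; every vertical axis spans the same number of log2 units. In Isg15, Usp18, Irf7 and Parp14 the tBA SD of 0.81 to 0.99 exceeds the difference of the means, whereas Trim25 shows 3 tBA points above the vehicle points.

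Of the IFI genes, Ifi44 and Ifi44l differed in opposite directions. Ifi44 was at 1.84, 1.20 and 1.28 in vehicle and at 2.17, 1.78 and 1.94 with tBA, with tBA replicate 2 below vehicle replicate 1 (difference 0.52, SE 0.20, adjusted p = 0.298). Its other 2 probes were also higher, at 0.10 and 0.56. On the latter, all tBA arrays exceeded all vehicle arrays (SE 0.18, adjusted p = 0.263 in limma). Ifi44l was at -2.56, -1.98 and -2.86 in vehicle and at -2.64, -3.39 and -3.12 with tBA (difference -0.58, SE 0.28, adjusted p = 0.366). tBA replicate 1 lay within the vehicle range for Ifi44l and above it for Ifi44. Ifi27 differed by 0.17 (SE 0.14) and Ifi35 by 0.14 (SE 0.10).

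Parp14, an ADP-ribosyltransferase with macrodomains, had the widest gap within the tBA group among the tested members. It was at 3.85, 4.24 and 4.40 in vehicle and at 4.83, 3.06 and 3.19 with tBA, so that tBA replicate 1 was the highest of the 6 arrays and the other tBA arrays the lowest. tBA replicate 1 exceeded the mean of the other tBA arrays by 1.71, and the difference between groups was -0.47 (SE 0.48, adjusted p = 0.642). All 3 other probes of Parp14 had the same sign, at -0.44 to -0.52, but they did not all share the order of arrays. The probe with a difference of -0.45 was at 0.01, -0.11 and -0.07 in vehicle and at -0.16, -0.78 and -0.58 with tBA. There tBA replicate 1 lay below all vehicle arrays, whereas on the remaining probes it was the highest array. Parp9, a related protein, had a range of 0.87 over vehicle and 0.49 over tBA, with a difference of -0.30 (SE 0.25).

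The guanylate-binding proteins and the TAP peptide transporter, which respond strongly to interferon gamma, were lowest on tBA replicate 2 in all 4 members. Gbp2 was at 1.54, 1.93 and 1.52 in vehicle and at 1.50, 0.66 and 1.52 with tBA. The groups were separate only by a rounding-size gap between the replicates 3, and the difference was -0.44 (SE 0.26, adjusted p = 0.440). Tap1 was at 0.44, 0.51 and 0.00 in vehicle and at 0.04, -0.59 and -0.13 with tBA, overlapping only through vehicle replicate 3 (difference -0.54, SE 0.21, adjusted p = 0.304). Its second probe was at -0.65. Tap2, the partner subunit, differed by -0.20 (SE 0.13) and Gbp5 by -0.24 (SE 0.25).

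The choice of probe mattered little for direction. Of the 33 tested members 19 had other tested probes, 24 in all, and 23 of these had the sign of the brightest probe, Mx1 being the exception.

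Further genes of the pathway, 106 in number and none of them members, were read from the same fit. By limma, 0 of the 68 tested had an adjusted p under 0.05, and 11 had an unadjusted p under 0.05, 16.2% against 15.1% of all genes. Of these 11, 10 were lower, where 7.46% of all genes were, and 1 was higher, where 7.59% of all genes were. Of 5 interferon genes with a probe, Ifnb1, Ifng, Ifna5 and Ifnk reached a level well above background on no array. Ifna4 ran from -1.88 to -1.77 in vehicle and from -2.20 to -1.88 with tBA, with a gap smaller than the rounding between the groups. The receptor genes Ifnar1, Ifngr2 and the kinase Jak1 differed by 0.02, -0.05 and 0.01. Ifngr1, the ligand-binding chain for interferon gamma, differed by -0.25 (SE 0.10, adjusted p = 0.320 in limma).

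In 19 of the 68 tested pathway genes, 27.9%, the groups did not overlap, against 24.2% of all genes. The 11 with an unadjusted p under 0.05 were among the 19. Ifi47, an immunity-related GTPase, was at 0.06, -0.18 and -0.44 in vehicle and at -0.82, -0.92 and -1.02 with tBA (difference -0.73, SE 0.15, adjusted p = 0.179). Irgm, another of these GTPases, was at 1.07, 1.00 and 0.79 in vehicle and at 0.63, -0.08 and -0.20 with tBA (difference -0.83, SE 0.23, adjusted p = 0.233). In both genes the groups did not overlap, and neither passed the test. Psmb8, a catalytic subunit of the immunoproteasome, ran from 3.72 to 4.07 in vehicle and from 2.71 to 3.45 with tBA (difference -0.71, SE 0.21, adjusted p = 0.249). The peptide-loading chaperones Calr and Pdia3 differed by -0.43 (SE 0.11) and -0.24 (SE 0.09), Slfn13 by -0.38 (SE 0.09), Dtx3l, which pairs with Parp9, by -0.46 (SE 0.17) and the chemokine Cxcl11 by -0.35 (SE 0.14), with separate groups and no pass. Among the 11, Tlr3, the endosomal receptor for double-stranded RNA, was the 1 higher gene at 0.50 (SE 0.12, adjusted p = 0.214), while the DNA sensor Tlr9 and the DNA exonuclease Trex1 differed by -0.57 (SE 0.19) and -0.22 (SE 0.09).

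Of the cell marker lists, only that of bile duct cells had a median with the same highest and lowest tBA arrays as the median member. Its median stood at 0.37, -0.47 and -0.10 on tBA replicates 1, 2 and 3 and at -0.08, 0.13 and -0.09 on the vehicle arrays relative to the vehicle mean (5 tested of 6 listed), and its summed linear level was 1.76 to 1.98 in vehicle and 1.49 to 2.37 with tBA. The single bile duct markers did not share this order. Within the tBA group, Spp1 and Cftr had it, but Krt19 was lowest on replicate 3, Krt7 highest on replicate 2 and Epcam highest on replicate 3. Endothelial cell markers (5 of 8) summed to 43.2 to 48.8 in vehicle and 50.9 to 53.3 with tBA, with medians of 0.14, 0.21 and 0.24 on the tBA arrays. That sum was mostly Kdr, the brightest of them, at 5.13 to 5.29 in vehicle and 5.39 to 5.45 with tBA. The groups were separate in Kdr and Tek and overlapped in Pecam1, Lyve1 and Cdh5. Only Cdh5 had a lower tBA mean (difference -0.04, SE 0.09). On tBA replicate 2 the median B and plasma cell marker stood at -0.87 relative to the vehicle mean (4 tested of 8 listed) and the median T and NK cell marker at -0.49 (13 of 15), against 0.11 and 0.03 on tBA replicate 3 and -0.13 and -0.26 on tBA replicate 1. The summed linear level of the B and plasma cell markers was 2.22 to 2.32 on the vehicle arrays and 1.57 to 2.06 on the tBA arrays. That of the T and NK cell markers was 12.9 to 15.4 and 12.2 to 14.95. The brightest genes of these sums were, in that order, Pax5 (difference -0.27, SE 0.10) and Ccl5 (0.01, SE 0.12). At an unadjusted p under 0.05 in limma, 3 of the 13 T and NK cell markers, Cd8a, Cd8b and Prf1, were lower and 0 higher. Of all genes, 7.46% were lower and 7.59% higher at that limit. None of the 3 passed. Cd8b differed most (-1.34, SE 0.26, adjusted p = 0.174 in limma), with separate groups. The 11 macrophage and Kupffer cell markers, all well above background on the 6 arrays, summed to 187 to 246 in vehicle and 203 to 210 with tBA, with medians of -0.15, -0.09 and -0.03 on the tBA arrays. Hepatocyte markers had medians of 0.001, 0.035 and 0.031 on the same arrays. Markers of muscle were at -0.49, 0.49 and 0.58 on tBA replicates 1, 2 and 3, with 4 of 7 tested and 2 not above background on any array. The part of other cell types and of the slide in the spread of the members was not tested.

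**Figure D5:**
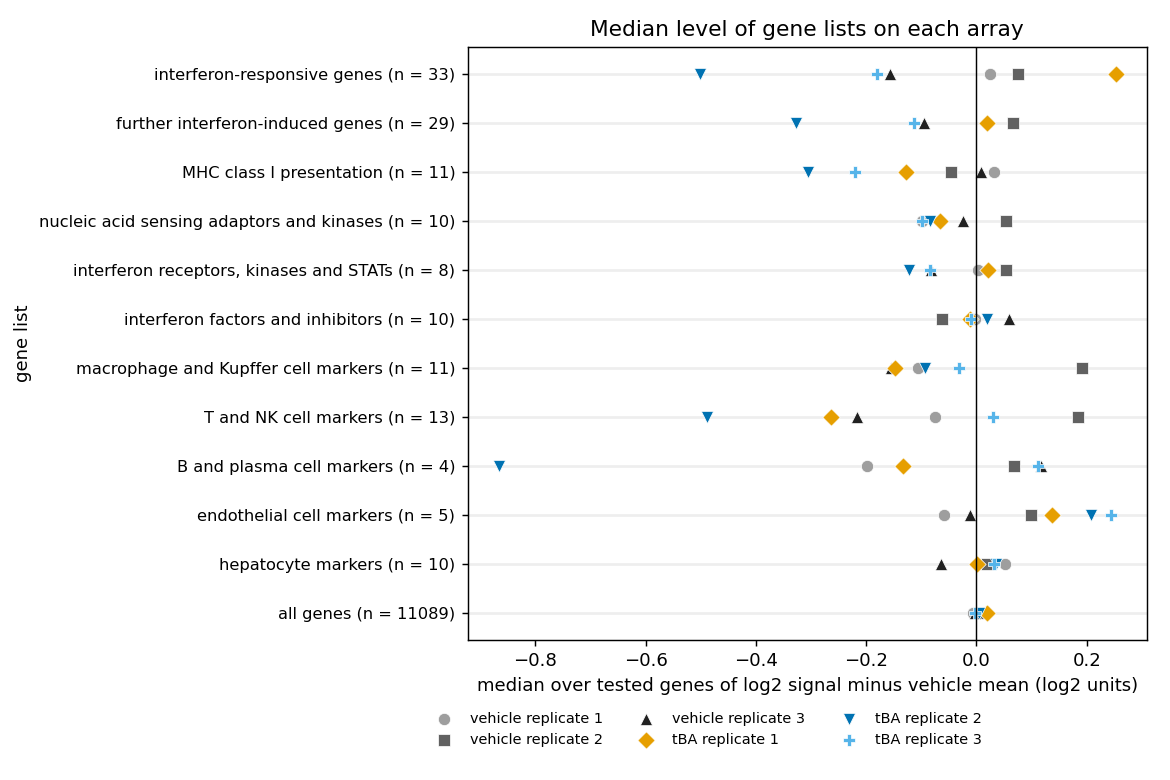
Median level of each gene list on each array relative to the vehicle mean (log2 units); n is the number of genes tested and each symbol is 1 array. The interferon-responsive genes spread from -0.50 on tBA replicate 2 to 0.25 on tBA replicate 1, while hepatocyte markers and all genes stay near 0. B and plasma cell markers spread from -0.87 on tBA replicate 2 to 0.12 on vehicle replicate 3. Several lists are not drawn, among them bile duct cells and muscle, whose medians also spread widely over the tBA arrays.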

How the data were processed

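Liver RNA of 6 rats was measured on Agilent one-colour arrays, per the labels. The intensity values were deposited by the authors with version 10.7.1.1 of Agilent's Feature Extraction, per the file headers (10.7 in the submitters' processing notes), and an rn4 annotation. The deposited series table holds a linear ratio, the processed signal divided by 1 divisor per array (570.0 to 639.5, near its 75th percentile), with column medians of 0.095 to 0.102; it was an alternative only.

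From the log2 processed signal, the 75th percentile of the array over 61657 probes was subtracted. limma 3.58.1 (lmFit, eBayes; R 4.3.3) was fitted to these values, with 3 against 3 animals. Control spots were left out, 3 to 16 outlier-marked spots per array were set missing, and 37647 probes were tested, each well above background in the whole of 1 group or more. Accessions named 27460 probes through RefSeq (GRCr8). The number of arrays limits the precision. The members, the gene lists and the roles were chosen with earlier results of these data known. Every member with a probe is named; of other pathway genes, those under an unadjusted p of 0.05, at most 6 a list, and others singled out after their values were seen. Alternatives were other background corrections, normalizations, filters, slide and replicate blocks, and leaving out each array. Only the limma fit was tested on simulated data, with independent noise and no slide effect. Figures used Python 3.11.15 and matplotlib 3.10.9.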

Additional observations from a re-analysis of the deposited data

How the results depend on the processing

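No member passed an adjusted p of 0.05 under any of the 18 alternatives run. The number of passing probes was 42, and it was 18 without a filter on dim probes, 0 with only probes above background on all 6 arrays (5634 at an unadjusted p under 0.05 in limma), 68 with an intensity trend, 20 with slide as a fixed block, 0 within slide 1 (2956 at an unadjusted p under 0.05) and 7 to 53 leaving out 1 array; without tBA replicate 2 it was 7 and without tBA replicate 3 it was 14. The replicate block gave 6 probes and 0 members. Deviations of same-numbered arrays correlated at -0.056, -0.064 and 0.014, and those of the other pairs at -0.058 to 0.11. Same-numbered arrays thus showed no shared deviation, which cannot decide whether the animals were paired by design. The median member difference of -0.20 was 0.25 with slide as a fixed block and within slide 1, and -0.38 to -0.015 leaving out 1 array; under the other alternatives it stayed between -0.23 and -0.15.

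Of 33 members, 15 kept their sign under every alternative run. With slide as a fixed block and within slide 1, where tBA replicate 1 is the sole treated array, the sign turned in Irf7 (0.40), Irf9 (0.45), Stat2 (0.26), Dhx58 (0.26), Oas2 (-0.047), Oasl (0.56), Ifit3 (0.65), Mx1 (0.30), Eif2ak2 (0.080), Cmpk2 (0.20), Bst2 (0.36), Isg15 (0.31), Usp18 (0.29), Parp14 (0.67) and Gbp5 (0.19). Normexp background correction turned Irf8 (0.038) and Oasl (0.089), and quantile normalization Oas1b (-0.025) and Oasl (0.079). Leaving out 1 array moved Irf9 from -0.27 to 0.14, Oasl from -0.29 to 0.33, Ifit2 from -0.16 to 0.28, Dhx58 from -0.32 to 0.065, Ifit3 from -0.65 to 0.16, Mx1 from -0.52 to 0.048, Usp18 from -0.86 to 0.0001, Gbp5 from -0.45 to 0.017 and Bst2 from -0.45 to 0.066. The array levels of the median member were rescaled, an alternative chosen after seeing the data, by normexp, quantile, detected-probe percentile and the authors' table: tBA replicate 1 stayed at 0.20 to 0.25, tBA replicate 2 at -0.53 to -0.38 and tBA replicate 3 at -0.21 to -0.18.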
